A study of Mus musculus with 2 samples.

Results

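Interleukins and their receptors were examined in endothelial cells sorted from normal mouse brain. The set held 79 of the 18194 genes measured. It was every gene of the platform annotation whose symbol starts with Il and a digit, together with Il6st, Lif, Lifr, Osm, Osmr, Clcf1 and Cntfr. Cntf and Il22 have probe sets annotated to several genes and were left out, and family genes without a probe set of their own symbol were not analysed here. The 79 genes comprised 35 ligands, 36 receptor or accessory chains, 6 antagonists or decoys (Il1rn, Il18bp, Il22ra2, Il1r2, Il13ra2 and Il1f5), and 2 others that the symbol rule takes in, the enzyme gene Il4i1 and the RNA gene Il1bos. They were covered by 129 probe sets, and the probe set with the highest mean signal stood for its gene.

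A pair of populations sorted from C57BL/6 brain vasculature was compared without any treatment. CD31+ Prom1- and CD31+ Prom1+ cells were separated by FACS, CD31 being an endothelial surface protein and Prom1 the mouse CD133. Total RNA of each was amplified and hybridized to 1 Affymetrix whole-genome mouse array of 45101 probe sets. The sources used here state neither the age of the mice nor their number. Each population has a single array, so no replicate error or p-value can be given, and each fold compares these arrays, not the populations.

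Interleukins are secreted proteins by which leukocytes and tissue cells signal to each other. Most act through receptors assembled from a chain that binds the ligand and a chain that is shared with relatives, such as gp130 (Il6st) for the IL-6 family, and pass their signal to Janus kinases and STAT factors. The IL-1 and IL-17 families use adaptor proteins in place of Janus kinases. Brain endothelium is known to respond to IL-1 and IL-6 family cytokines in the blood and to pass inflammatory signals on to the brain. Chains of a receptor complex are therefore described together below.

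Signals are given as multiples of the array median, the Prom1- array first. Signals under a floor of 1.67 times the median were set to the floor, a fold with 1 signal under it is a bound, and no fold is given with both under it. The arrays are named by their labels, which the Prom1 transcript does not bear out. Prom1 itself was not higher in the Prom1+ array, with signals of 196 and 159 times the median, a log2 ratio of -0.30. Of 24 pan-endothelial genes, all reached the floor on both arrays and 1 differed by at least 2-fold. Transcripts of other cells were present. Of 19 genes of microglia and macrophages 12 were lower in the Prom1+ array by 2-fold or more, with summed signals of 296 and 128 times the median, and Ptprc and Itgam were under the floor on each array. Of 18 pericyte and smooth muscle genes 15 were lower, with summed signals of 1489 and 525 times the median. Of 13 fibroblast and meningeal genes 6 were lower and 2 had a log2 ratio above 0, with summed signals of 467 and 174 times the median. In bulk RNA fewer cells of a type and less RNA per cell cannot be told apart. None of 11 lymphocyte genes and none of 8 mast cell and basophil genes was measurable, that is, at or above the floor on an array. Over the 10793 measurable genes of the platform the log2 ratio of Prom1+ over Prom1- had a median of 0.66, and it varied with signal.

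Most interleukin genes were not measurable in brain endothelium, and those that were measurable were mainly receptors. Of the 79 genes, 23 (29.1%) were measurable, against 59.3% of all genes. These were 17 of the 36 receptor chains, 5 of the 35 ligands and 1 of the 6 antagonists and decoys. The other 56 had signals of 0.01 to 1.61 times the median, with a median of 0.184. Taking each array by itself, 23 genes of the set were measured with Prom1-, 18 with Prom1+ and 18 with both. Across the platform the counts were 9977 with Prom1-, 10176 with Prom1+ and 9360 with both, out of 10793 measurable genes. Genes measured on the Prom1- array alone were thus a larger share of the set than of the platform. A signal under the floor shows only that the transcript was not measurable, not that it is absent.

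Most of the genes that differed were receptors, as were 17 of the 23 measurable genes. By the rule of at least 2-fold, 7 genes were higher in the Prom1+ array, where 16.7% of all genes were, and 1 was lower, where 2.83% of all genes were. The 7 were the ligand Il18 and the receptor chains Il4ra, Il27ra, Il1r1, Il3ra, Il17rc and Il15ra, and the lower gene was the ligand Il34. The share higher was 8.86% of the 79, below that of all genes, and among the measurable genes of both sets the median log2 ratio was 0.53 beside 0.66. Of the 36 receptor chains 6 were higher (16.7%), a share close to that of all genes. Among measurable genes alone, 7 of 23 were higher beside 28.2% of all, and 1 of 23 was lower beside 4.77%. Of the 23 genes, 17 had a log2 ratio above 0 and 6 below 0, beside 8862 above and 1931 below of the 10793 measurable genes of the platform.

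**Figure D1:**
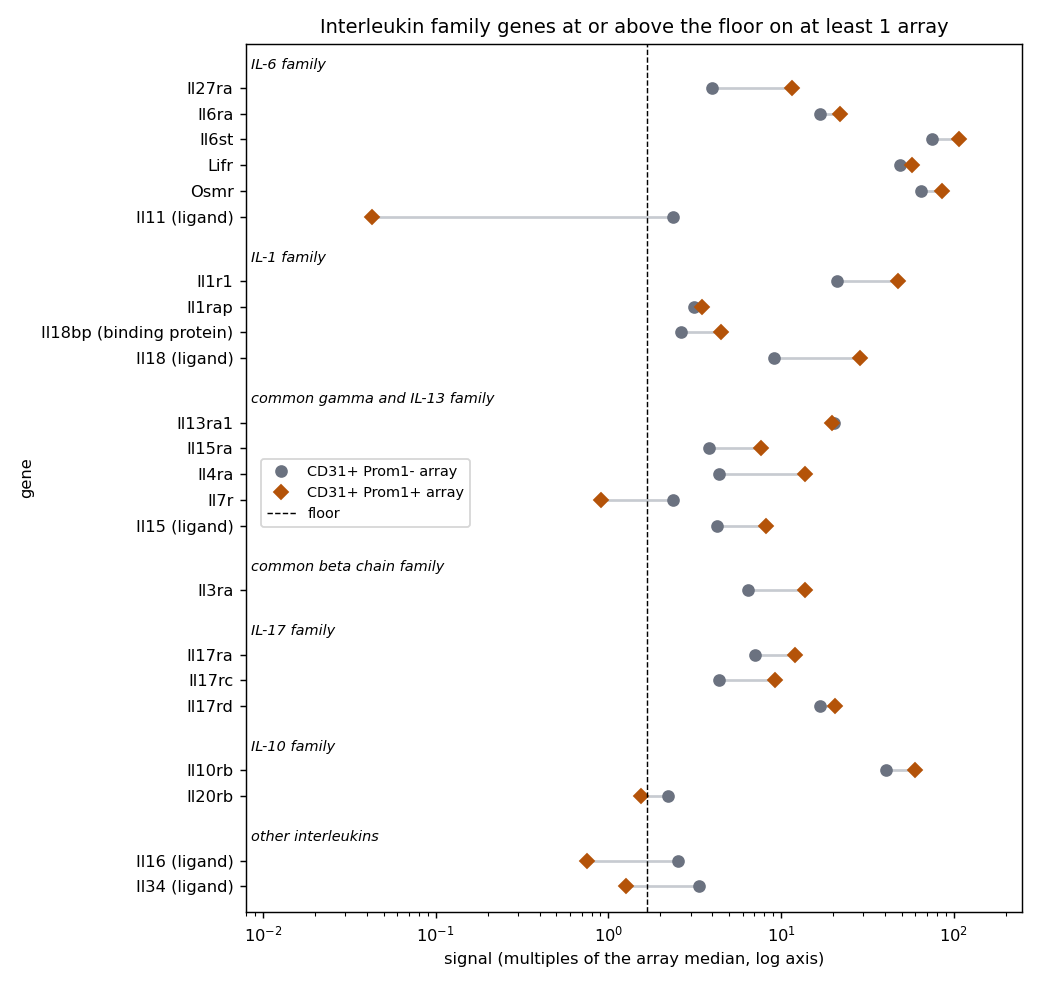
Signal of the 23 measurable genes, in multiples of the array median on a log axis, with 1 grey circle for the CD31+ Prom1- array and 1 brown diamond for the CD31+ Prom1+ array. The dashed line is the floor of 1.67 times the median, and 5 genes, Il11, Il7r, Il20rb, Il16 and Il34, lie above it in the Prom1- array alone.

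Interleukin 18 was the ligand past 2-fold in the direction of Prom1+. Il18, a cytokine of the IL-1 family that is stored as a precursor and cut by caspase 1, had signals of 9.13 and 28.6 times the median (Entrez Gene 16173), which made it 3.13-fold higher in the Prom1+ array. Its soluble inhibitor Il18bp was measurable too, with 2.64 and 4.49 times the median, a log2 ratio of 0.77. The receptor for IL-18 was not, since Il18r1 had signals of 0.0142 and 0.0822 times the median and Il18rap at most 0.26 times. The processing enzyme Casp1 had 3.10 and 2.24 times the median, a log2 ratio of -0.47. Ligand and inhibitor were thus above the floor in both populations, and both receptor chains under it.

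For IL-1 itself the order was the opposite, with the receptor measurable and the ligands not. Il1r1, the signalling receptor, had signals of 21.2 and 47.8 times the median, which made it 2.26-fold higher in the Prom1+ array. Il1rap, the accessory chain needed for signalling by IL-1, IL-33 and IL-36, had 3.13 and 3.47 times, a log2 ratio of 0.15. Il1a, Il1b, Il33, the antagonist Il1rn and the decoy receptor Il1r2 were under the floor on both arrays. The closest to it was Il33, a nuclear alarmin, at 0.605 and 1.61 times the median. A second probe set of Il1r1 was far under the floor on both arrays. Averaging it in takes the Prom1- value under the floor and leaves only a bound, a log2 ratio of at least 0.04. The remaining genes of the family that were analysed, Il1f5, Il1f6, Il1f8, Il1f9, Il1f10, Il1rl2, Il1rapl1 and Il1rapl2, did not reach the floor either. The IL-33 receptor gene Il1rl1 had no probe set of its own symbol.

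IL-6 family receptors were measurable in both populations, with 5 of 7 chains above the floor on both arrays. Il6st, the shared signal transducer gp130, had signals of 74.5 and 107 times the median, a log2 ratio of 0.53. Osmr, the oncostatin M receptor, had 64.5 and 85.1 times, a log2 ratio of 0.40, and Lifr, the receptor for leukemia inhibitory factor, had 49.0 and 57.1 times, a log2 ratio of 0.22. Il6ra, which binds IL-6, had 16.8 and 22.1 times, a log2 ratio of 0.39. These 4 differed by less than 2-fold. Il27ra, which pairs with gp130 to bind IL-27, had 3.97 and 11.6 times and was 2.92-fold higher in the Prom1+ array. Cntfr and Il31ra were under the floor on both arrays.

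The ligands of this family were mostly not measurable. Il6, the founding member, had signals of 0.530 and 0.195 times the median, so no fold is given. Lif, Osm, Clcf1 and Il31 were under the floor on both arrays. Il11 was measured in the Prom1- array alone, at 2.36 times the median against 0.0425 times in the Prom1+ array. With the floor this made it at least 1.41-fold lower, short of 2-fold.

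Probe sets of the same receptor did not give the same ratio. The 4 of Il6st had log2 ratios of 0.53, 1.83, 1.46 and -0.50, from the brightest to the dimmest, with the second at 5.57 and 19.7 times the median. For Lifr, a dimmer probe set had 1.09 and 6.48 times and was at least 3.87-fold higher in the Prom1+ array. The 3 of Osmr ran from 0.40 to 0.70. Over the 4 genes with several probe sets measured on each array the SD of log2 ratios within a gene was 0.70, beside 0.54 over 3930 genes of the whole platform. This SD is a technical spread inside 1 pair of arrays and cannot stand for variation among animals. A log2 ratio of 0.53 for Il6st was thus within it, and the 2-fold rule would have called Il6st and Lifr by other probe sets.

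**Figure D2:**
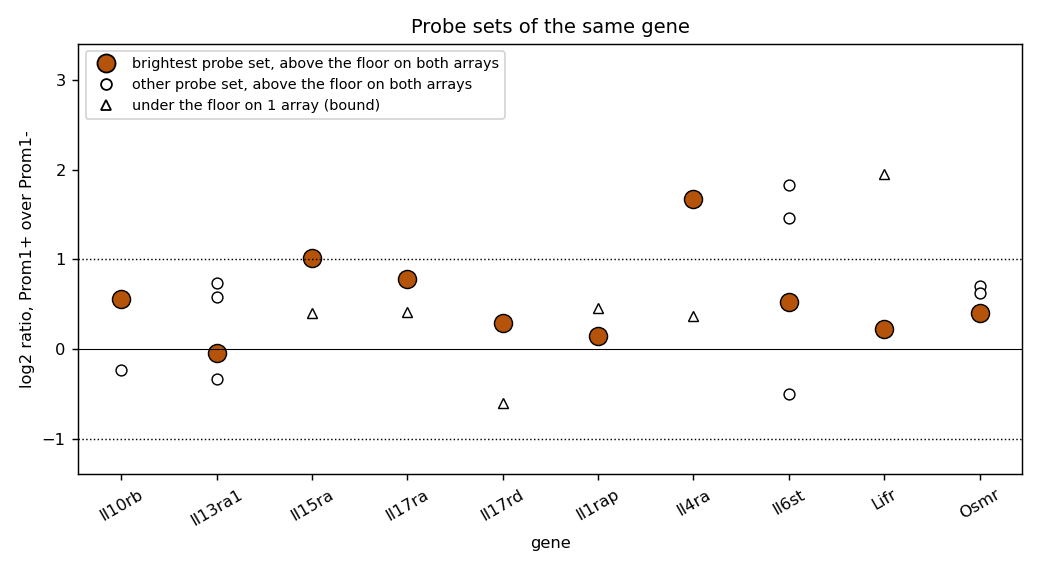
Log2 ratio of Prom1+ over Prom1- for each measurable probe set, for the 10 genes with several such probe sets. Filled circles are the brightest probe set of a gene, open circles other probe sets measured on each array, triangles those under the floor on 1 array, and dotted lines mark 2-fold. The probe sets of Il6st spread from -0.50 to 1.83.

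The receptor for IL-4 and IL-13 was measurable through both of its chains, which differed unequally. Il4ra, the chain that binds IL-4, had signals of 4.36 and 13.8 times the median (Entrez Gene 16190), which made it 3.18-fold higher in the Prom1+ array, the largest fold toward Prom1+ among the 18 genes measured on both arrays. Its second probe set had 0.509 and 2.17 times, at least 1.29-fold higher, and its dimmest did not reach the floor. The mean over these probe sets was under the floor with Prom1- and gave only a bound, a log2 ratio of at least 0.31. Il13ra1, the partner chain in cells outside the blood lineage, had 20.3 and 19.7 times, a log2 ratio of -0.04. The other 3 measurable probe sets of Il13ra1 had log2 ratios from -0.33 to 0.73. Il4, Il13 and the decoy Il13ra2 were under the floor on both arrays.

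Among cytokines of the common gamma chain, IL-15 and its own receptor chain were the measurable pair. Il15, which cells present on their surface bound to IL-15 receptor alpha, had signals of 4.28 and 8.23 times the median, 1.92-fold higher in the Prom1+ array and just short of the rule. Il15ra, at 3.80 and 7.69 times, was just past it at 2.02-fold higher, and its second probe set had 1.22 and 2.20 times, at least 1.32-fold higher. Il2rb, the chain through which IL-15 signals, did not reach the floor, with at most 0.115 times. The 2 transcripts of the pair thus had nearly the same fold on different sides of the threshold. Il7r, which binds IL-7 and also forms part of the TSLP receptor, was measured in the Prom1- array alone, at 2.37 against 0.906 times, at least 1.41-fold lower. The other 5 receptor chains or decoys analysed in this branch, Il2ra, Il9r, Il21r, Il2rb and Il13ra2, and the ligands Il2, Il4, Il7, Il9, Il13 and Il21 did not reach the floor. The common gamma chain gene itself, Il2rg, had no probe set of its own symbol and was not analysed.

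The 250 bases before the RefSeq start sites (GRCm38.p6) of the genes with the largest folds toward Prom1+, Il4ra and Il18, and of the second start of Il15ra, which holds a motif match, are shown 5′ to 3′. They were searched on both strands for a STAT site (TTCNNNGAA), an NF-kB site (the kappa B decamer of the immunoglobulin kappa enhancer) and an AP-1 site (TGAGTCA), and matches are in capitals.

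Il18, plus strand, chr9:50554450-50554699: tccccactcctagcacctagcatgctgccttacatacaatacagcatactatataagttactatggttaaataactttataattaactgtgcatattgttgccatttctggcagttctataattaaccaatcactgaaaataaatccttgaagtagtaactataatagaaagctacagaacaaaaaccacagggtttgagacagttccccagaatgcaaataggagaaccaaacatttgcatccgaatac

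Il4ra, plus strand, chr7:125552021-125552270: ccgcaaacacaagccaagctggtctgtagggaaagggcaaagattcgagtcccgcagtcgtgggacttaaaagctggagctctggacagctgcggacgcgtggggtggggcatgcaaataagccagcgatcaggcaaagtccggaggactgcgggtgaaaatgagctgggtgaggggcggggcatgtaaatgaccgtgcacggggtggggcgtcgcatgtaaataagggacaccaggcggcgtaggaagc

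Il15ra, plus strand, chr2:11705462-11705711: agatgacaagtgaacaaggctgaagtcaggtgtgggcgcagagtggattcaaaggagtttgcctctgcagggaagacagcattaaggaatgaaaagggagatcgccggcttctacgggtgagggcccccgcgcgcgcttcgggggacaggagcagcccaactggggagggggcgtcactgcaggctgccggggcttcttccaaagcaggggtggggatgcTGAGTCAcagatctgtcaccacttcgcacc

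The Il18 and Il4ra windows held none of these letters, and the Il15ra window shown held 1 AP-1 match. The windows of the other Il15ra start and of Il1r1, Il17rc and Il3ra, not shown, held no match either. GC content was 35.6% before Il18, 59.6% before Il4ra and 60.4% before Il15ra, beside a median of 52.4% over 32851 RefSeq promoters. The AP-1 letters stood in 13 of 80 promoter windows of the set (16.2%) and in 4.46% of all promoters. Of the 13 genes with them, 3 were measurable here, Il11, Il15ra and Il16, and the remainder, among them Il6, Il1a and Lif, were under the floor. The STAT letters stood in 8 of the 80 windows and in 7.02% of all. The NF-kB letters stood in none of the 80 and in 0.140% of all. A match of letters is a description and not a binding site.

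The IL-3 receptor is built from Il3ra, which binds the ligand, and a signalling beta chain encoded in the mouse by Csf2rb or by Csf2rb2. Il3ra had signals of 6.41 and 13.8 times the median, which made it 2.15-fold higher in the Prom1+ array. Csf2rb2, the beta chain used by IL-3 alone, had 0.583 and 11.1 times and was at least 6.65-fold higher there. Csf2rb, shared with IL-5 and GM-CSF, had 3.24 and 6.02 times, a log2 ratio of 0.90. All 3 were higher in the Prom1+ array, and 2 of them by the rule, beside 28.2% of all measurable genes. After the loess correction given below, the log2 ratios were 0.20 for Il3ra, 0.078 for Csf2rb and 1.92 for Csf2rb2. The value of Csf2rb2 is a bound, since its Prom1- signal was under the floor. Csf2rb and Csf2rb2 are closely related in sequence, so a share of either signal could come from the other gene. Il3, Il5 and Il5ra were under the floor.

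Of 5 receptor chains of the IL-17 family 3 were measurable, and of the 4 ligands analysed here none was. Il17ra, the chain shared by the family, had signals of 7.04 and 12.1 times the median, a log2 ratio of 0.78. Il17rc, its partner for IL-17A and IL-17F, had 4.38 and 9.26 times and was 2.11-fold higher in the Prom1+ array. A second probe set of Il17rc had 0.026 and 0.205 times, and the mean over both was under the floor on each array. Il17rd, a member of the family that also restrains FGF signalling, had 16.8 and 20.6 times, a log2 ratio of 0.29, while its dimmer probe set had 2.55 and 1.26 times and was at least 1.52-fold lower. Il17rb, Il17re, Il17a, Il17b, Il17d and Il25 were under the floor on both arrays.

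The IL-10 and IL-12 families left little signal. Il10rb, a chain shared by the receptors for IL-10, IL-22 and interferon lambda, had 40.7 and 60.0 times the median, a log2 ratio of 0.56. Its dimmer probe set had 3.29 and 2.80 times, a log2 ratio of -0.23. None of Il10ra, Il20ra and Il22ra1, chains that bind ligands of the family, reached the floor, nor did the decoy Il22ra2. Il20rb was just above it in the Prom1- array and just under it in the Prom1+ array, at 2.21 and 1.55 times. Il10, Il20 and Il24 and all 5 genes of the IL-12 family were under the floor on both arrays.

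A pair of cytokines outside these families was measured in the Prom1- array alone. Il34, the second ligand of the colony stimulating factor 1 receptor, had 3.36 times the median against 1.26 times and was lower by at least 2.01-fold with Prom1+. Il16, a chemoattractant of CD4-positive cells, had 2.53 against 0.748 times, at least 1.51-fold lower. Some transcripts of other cells were lower as well. The receptor gene Csf1r, a microglial marker, had 71.5 and 33.6 times the median. Neurons are a known source of IL-34, and of 10 neuronal genes Syt1, Map2 and Snap25 were at least 2-fold lower with Prom1+, 5 were under the floor on each array (Rbfox3 and Tubb3 among them), and the summed signal was 72.0 and 82.8 times the median, most of it from Stmn2, which had 45.1 and 79.5 times. Astrocyte and oligodendrocyte genes went both ways. Of 10 astrocyte genes Fgfr3 and Sox9 were at least 2-fold higher and S100b lower, and of 9 oligodendrocyte genes Cnp was higher and Mbp and Mobp lower. The part of these cells in the values of Il34 and Il16 was not tested.

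The differences have to be read against the shift between the arrays, which was largest at middling signal. At a mean log2 signal of 2 to 4, 42.9% of the measurable genes of the platform were at least 2-fold higher in the Prom1+ array, and 5 of the 7 interleukin family genes in this range were, while 5.4% and none were lower. At 4 to 7, 20.3% of all genes and 2 of 9 members were higher, and 1.31% and none were lower. Under 2, 24.3% of all genes and none of 7 members were higher, and 11.5% and 1 of 7 were lower. After loess removal of the trend, none of the 79 was at least 2-fold higher, beside 4.21% of the measurable genes of the platform, and Il34 alone was lower, at a log2 ratio of -1.26, beside 8.42%. The highest corrected log2 ratios were 0.79 for both Il4ra and Il18, then 0.68 for Il27ra and 0.44 for Il1r1. Il15ra, Il17rc and Il3ra had 0.15 to 0.21. On the other side, after Il34, Il13ra1 had -0.89, Il16 -0.68, Il17rd -0.56, Il7r -0.54, Il11 -0.53, Il1rap -0.48 and Il6ra -0.46.

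**Figure D3:**
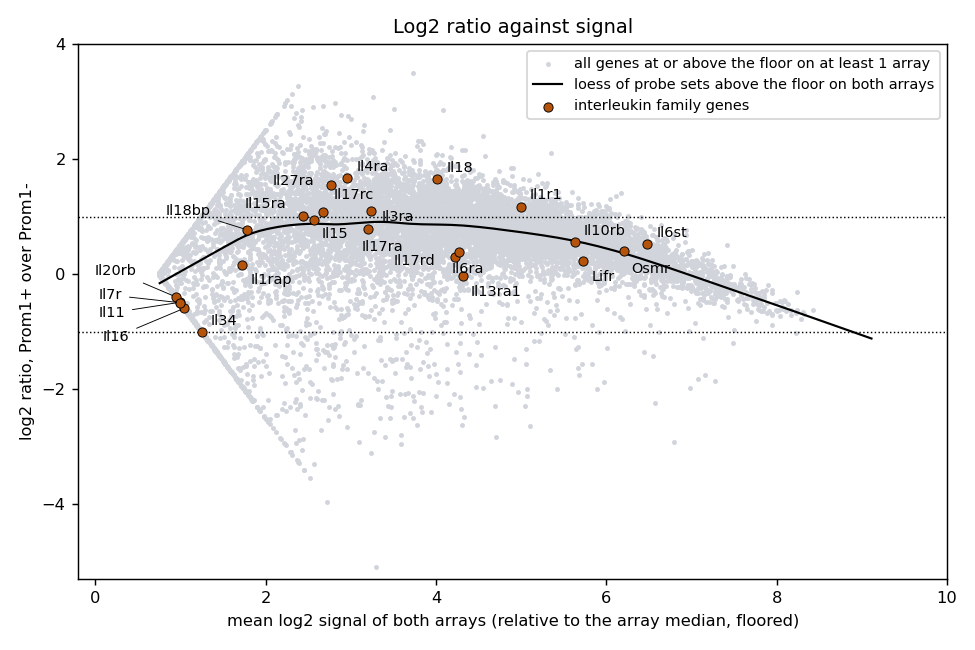
Log2 ratio of Prom1+ over Prom1- against the mean log2 signal of both arrays, relative to the array median, with signals floored. Grey points are the 10793 genes at or above the floor on at least 1 array, brown points the 23 interleukin family genes, the line is the loess trend and dotted lines mark 2-fold. Il4ra, Il18 and Il27ra lie farthest above the trend.

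The calls depended on how the arrays were scaled. Il4ra, Il18 and Il27ra kept a log2 ratio above 0.6 under every scaling, from 0.79 to 2.72, 0.79 to 2.70 and 0.68 to 2.60. The same trimmed mean left these 3 past 2-fold, and quantile normalization and loess left none. With the hybridization controls set equal, 18 of the 79 were higher, beside 48.2% of all genes. Il34 was lower by the rule under each scaling but this, where its log2 ratio was -0.36. With a floor of 200 on the scale of the target it was -0.0058, since the Prom1- signal was then just above the floor. For Il6st, Osmr, Lifr, Il6ra, Il10rb, Il17ra, Il17rd, Il1rap, Il20rb and Il13ra1 the sign depended on the scaling.

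**Figure D4:**
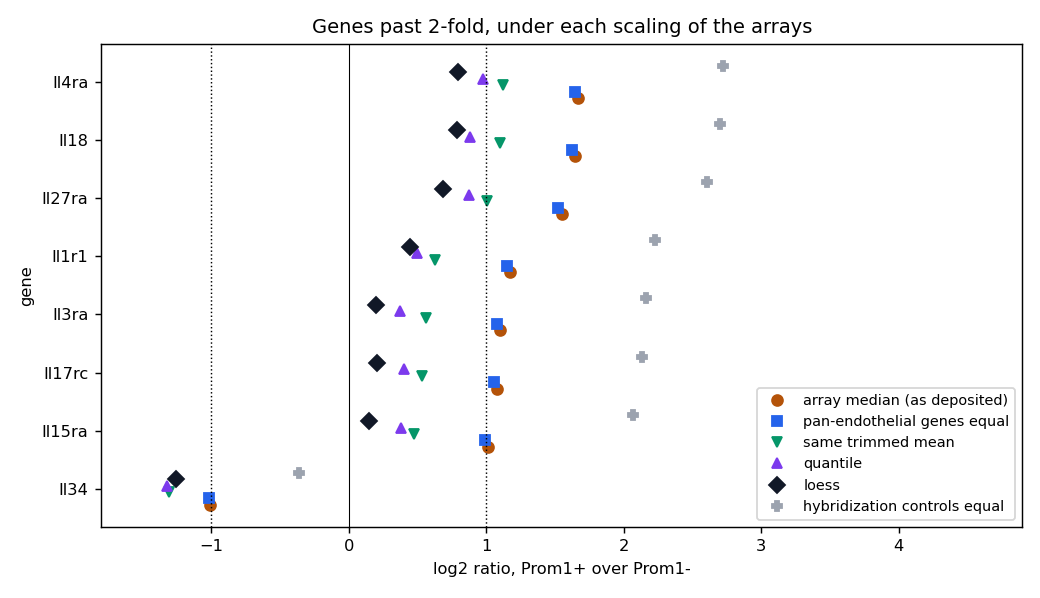
Log2 ratio of Prom1+ over Prom1- of the 8 genes past 2-fold, under each of 6 scalings of the arrays, 1 marker per scaling, with dotted lines at 2-fold. Ratios are smallest with loess and largest with the hybridization controls set equal, except for Il34, whose ratio there is nearest to 0.

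The genes that carry the signal inside the cell were measurable in most cases and differed in the direction of the general shift. Of 10 Janus kinases and STAT factors 9 were measurable and 4 were at least 2-fold higher in the Prom1+ array, and none was lower, with a median log2 ratio of 0.81 over the measurable ones. Of all measurable genes 28.2% were higher by this rule, a share to set beside the count among the measurable genes of each list. The brightest were Jak2, at 38.6 and 67.5 times the median, Stat6, at 30.1 and 49.6 times, and Stat3, at 23.1 and 34.0 times, and none of these was past 2-fold. Jak3, the kinase of the common gamma chain, had signals of 1.98 and 7.98 times the median, which made it 4.02-fold higher. Tyk2 had 7.25 and 22.5 times and was 3.10-fold higher, and Stat5b and Stat5a were 2.73-fold and 2.57-fold higher. Jak1 and Stat3, which serve gp130, had log2 ratios of 0.44 and 0.56. After loess Jak3 alone stayed past 2-fold, at 1.23.

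Of 14 inhibitors of cytokine signalling 13 were measurable. Of these 5 were at least 2-fold higher and none lower, with a median log2 ratio of 0.74. Cish, a feedback inhibitor induced through STAT5, had signals of 2.96 and 13.2 times the median, which made it 4.47-fold higher, and its log2 ratio after loess was 1.29. Socs4, Pias2, Pias3 and Socs6 were 2.13-fold to 2.85-fold higher. Socs3, the feedback inhibitor of gp130 signalling, had 41.9 and 62.2 times, a log2 ratio of 0.57. The brightest were Ptpn11, at 55.7 and 85.8 times, Socs7, at 55.1 and 67.7 times, and Socs2, at 40.6 and 74.5 times. Ptpn6 and Pias4 had log2 ratios of -0.24 and -0.13, the former a bound. Socs1 was under the floor.

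Of 15 adaptors of IL-1 and Toll receptors 13 were measurable. Of these 4 were at least 2-fold higher and none lower, with a median log2 ratio of 0.79. Irak2 had signals of 3.79 and 12.6 times the median, which made it 3.34-fold higher, and Map3k7, Irak3 and Irak1 were 2.99-fold, 2.43-fold and 2.11-fold higher. Myd88, the first adaptor of the pathway, had a log2 ratio of 0.60, and Peli2 was lowest at -0.38. Tollip, at 90.5 and 107 times, and Tab2, at 57.3 and 94.1 times, were the brightest with Irak1. Of 8 genes of cytokine processing 7 were measurable and none differed by 2-fold, with a median log2 ratio of 0.62. Adam17, which sheds the IL-6 receptor from the cell surface, had 36.2 and 70.6 times, a log2 ratio of 0.97. Adam10 was brightest, at 89.9 and 101 times, and Casp8 had 14.4 and 27.3 times, a log2 ratio of 0.92.

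Of 7 further partners of interleukins and their receptors 5 were measurable, and Csf2rb2 (above) and Crlf2 were at least 2-fold higher. Crlf2, the chain that binds TSLP, had signals of 5.66 and 14.7 times the median, which made it 2.59-fold higher, whereas its partner Il7r was under the floor in the same array. Tslp itself had 3.34 and 0.262 times, a bound just short of 2-fold lower. Ebi3 and Ctf1 were under the floor on each array. Over these 5 lists the median log2 ratios, 0.62 to 0.90, lay around the 0.66 of all genes. Under loess they were -0.026 to 0.25, with 3 genes higher, Jak3, Cish and Csf2rb2, and 2 lower, Peli2 and Tslp.

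**Figure D5:**
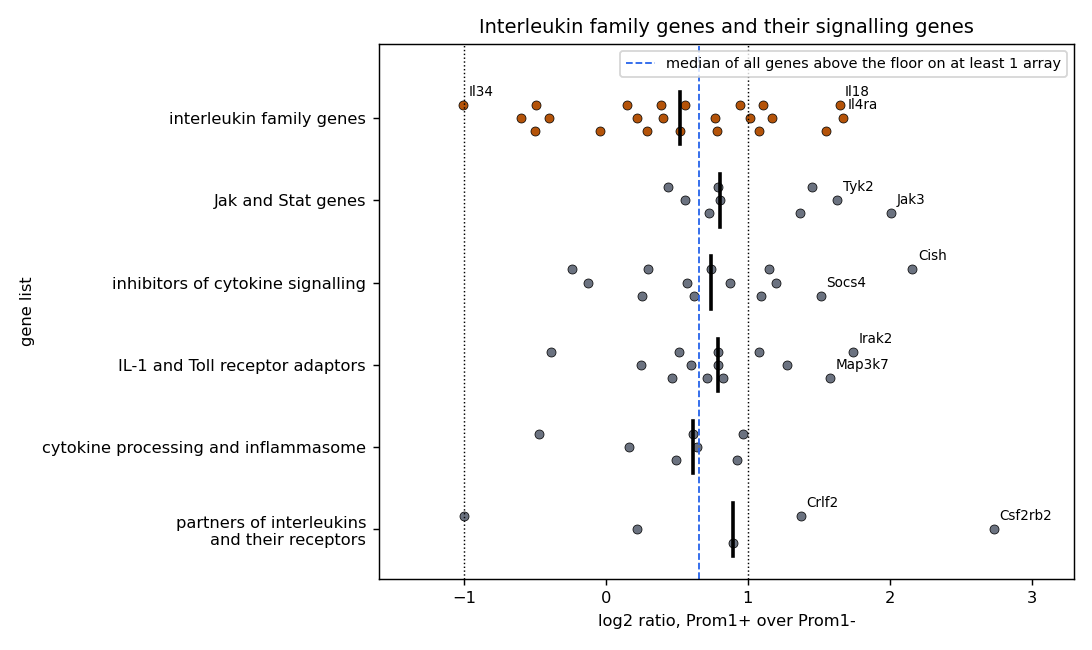
Log2 ratio of Prom1+ over Prom1- of the interleukin family genes (brown) and of the genes of 5 signalling lists (grey) that were measurable, 1 point per gene. Black bars are list medians, the dashed line is the median of all genes, 0.66, and dotted lines mark 2-fold. The list medians lie near the dashed line, and Csf2rb2, Cish and Jak3 lie farthest to the right.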

How the data were processed

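Endothelial transcripts were measured on 2 Affymetrix mouse arrays, 1 per sorted population. The authors amplified and biotin-labeled the RNA, scaled each array to a target of 500 in the GeneChip Operating Software and normalized in GeneSpring. MAS5 is named, without a version, in the submitters' processing notes. Deposited were log2 signals relative to the median of the array (median 0 in both columns, lowest -6.64), and the signals before that step and detection calls were not used here. Precision is limited by the number of arrays.

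The 2-fold rule was applied to signals raised to a floor, 100 on the scale of the target, translated to 1.67 times the median through the mean of both 2% trimmed means. Of 45101 probe sets, 34958 had 1 gene symbol in the platform annotation, 932 had several and 9211 were unlisted. The loess (span 0.2) was fitted on 17488 probe sets measured on each array. Every member at or above the floor is named, with the partner chains and ligands that had a probe set of their own symbol. Il2rg, Il1rl1, Il11ra1, Il11ra2, Il27, Il17c and Il17f were listed and had none. Also named are the 3 brightest genes of each signalling list and the 2 with the largest ratios each way. Of the cell type lists only genes beside a result are named, fewer than the planned 3 brightest of each. The members, gene lists and motifs were chosen with earlier results of these data known. The rules were tested on simulated data that had no shift between the arrays and added folds only to genes well above the floor. That test therefore did not cover the shift or differences near the floor. Promoters are from RefSeq, GRCm38.p6, and were found for 6 of the 8 genes past 2-fold. The work used matplotlib 3.10.9, statsmodels 0.14.6, pandas 2.3.3 and numpy 2.4.6 under Python 3.11.15. The alternatives are given in the closing section.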

Additional observations from a re-analysis of the deposited data

How the results depend on the processing

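No paired analysis was possible because each population has 1 array. The count of genes higher in the Prom1+ array was 7. It was 10 with a threshold of 1.5-fold (32.4% of all genes) and 2 with 3-fold (3.91%), 18 with no floor (28.2%), 3 with the same trimmed mean (4.77%), 18 after equating the hybridization controls (48.2%) and 0 with quantile normalization (3.80%) or loess (2.50%), against 16.7% of all genes for the 7. Equating the pan-endothelial genes gave 6. The count was 5 with the mean over all probe sets and 7 with a floor of 50 or 200 or without _x_at and _s_at probe sets. The mean over all probe sets takes Il1r1 and Il4ra under the floor with Prom1- and Il17rc under it on both arrays. By that mean Il17ra, Il18, Il27ra, Il3ra and Lifr were called. The count of genes lower was 1. It was 4 with a floor of 50 (4.55% of all genes), 0 with a floor of 200 (1.65%), 26 with no floor (18.6%), 2 with 1.5-fold (4.48%), 0 with 3-fold (1.41%) and 0 after equating the hybridization controls (0.973%), against 2.83% for the 1. The number of measurable genes, 23, became 79 with no floor, which admits signals as low as 0.01 times the median. The median log2 ratio of 0.53 was -0.031 with no floor, -0.019 with the same trimmed mean, 1.52 after equating the hybridization controls, 0.03 with quantile normalization and -0.015 with loess. The median of all genes moved with it, from 0.66 to 0.49, 0.12, 1.67, 0.09 and 0.04. Of 220 values of single genes under the alternatives, 141 moved by less than 0.54, the SD between probe sets of a gene, and 79 by more. No gene past 2-fold changed sign. The cause of these changes was not tested.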

Other observations

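Cytokine receptors related to those of the interleukins, from a list drawn up after the data were seen, were also measurable. Of 11 genes 7 reached the floor on both arrays. Of these 1 was at least 2-fold higher in the Prom1+ array, beside 28.2% of all measurable genes. Another 1 was at least 2-fold lower, beside 4.77%. The growth hormone receptor Ghr had signals of 20.9 (Prom1-) and 52.2 (Prom1+) times the median, a 2.49-fold difference. Its log2 ratio after loess was 0.60. The interferon receptor chains Ifnar1 and Ifnar2 had log2 ratios of 0.51 and 0.44, and Ifngr1 and Ifngr2 had 0.38 and 0.79. The leptin receptor Lepr had 12.6 and 18.0 times the median, a log2 ratio of 0.51. Epor, at 0.676 and 1.62 times, Csf3r, Kit and Flt3 were under the floor. The lower gene, Csf1r, was the only one of them past 2-fold after loess, at -1.67. Among 4 haematopoietic cytokines outside the interleukins, chosen in the same way, Csf1 had 6.16 and 20.9 times the median, 3.39-fold higher in the Prom1+ array, and Kitl had 120 and 119 times. Csf1 and Il34 encode the ligands of Csf1r, and their log2 ratios had opposite signs. After loess that of Csf1 was 0.87, short of 2-fold, and that of Il34, with its Prom1+ signal under the floor, was -1.26.

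A probe set annotated to both Ntan1 and Il2 had 10.7 and 14.3 times the median. The signals of the probe set annotated to Il2 alone were 0.236 and 0.105 times. The probe set that names Cntf beside Zfp91 and Gm44505 was at 0.420 and 0.991 times, and those shared by Il4i1 with Il4i1b and by Il22 with Iltifb were under the floor as well.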
